A study of Mus musculus with 6 samples.

Results

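Transcripts of 9 genes that write or remove methyl groups on DNA were followed in whole testes of mice with a germ-cell deletion of Dcaf2. The genes were chosen by symbol, and all 9 were found among the 22274 genes of the count table: Dnmt1, Uhrf1, Dnmt3a, Dnmt3b, Dnmt3l, Tet1, Tet2, Tet3 and Tdg. The first group was 3 libraries of testes labelled day 9 and conditional Dcaf2 knockout (cKO), in which floxed Dcaf2 was removed by Stra8-Cre. The other was 3 libraries of testes labelled day 9 and control, with no genotype given beyond that word. Stra8-Cre is a recombinase driven by a promoter of spermatogonia, so somatic cells of the cKO testis were not meant to lose the gene. DCAF2 brings proteins to the CRL4 ubiquitin ligase, and the study's title names thymine DNA glycosylase, the product of Tdg, as one of them. The event that day 9 counts from is not named in the labels. Nor do they tell whether the numbered libraries came from separate mice, and the p-values therefore measure only the spread between libraries, which may be technical.

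DNMT1 copies methyl groups to the new strand after replication, and UHRF1 brings it to hemimethylated CpG sites. DNMT3A and DNMT3B methylate DNA that carried no mark, with DNMT3L as a partner that has no catalytic activity of its own. TET enzymes oxidise 5-methylcytosine, and TDG cuts out the oxidised forms so that base excision repair can put back cytosine. In the male germ line, methylation is laid down before birth, and DNMT3A, DNMT3B and DNMT3L are known from mouse genetics to take part in setting it.

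Libraries held 15407007 to 17564942 counts in cKO and 16097362 to 18372964 in control, and 14424 genes entered the test. Control library 1 stood apart: its counts fell with transcript length, with a median of 0.37 against each gene's mean in the shortest of 10 length classes and -0.44 in the longest class (centred log2 CPM, counts per 1000000). Germ-cell transcripts were lower in cKO testes. All 18 of 18 pan-germ-cell markers fell, with summed levels of 669 to 841 CPM in cKO and 1767 to 2292 CPM in control. Sertoli cell markers, from the nurse cells of the tubule, rose in 9 of 16 cases, with sums of 8592 to 9863 CPM in cKO and 6203 to 8621 CPM in control. Their count was 2, 1 and 6 without cKO libraries 1, 2 and 3, and 14, 7 and 4 without control libraries 1, 2 and 3. The test named below called 11.1% of all tested genes higher and 13.9% lower. Higher calls over all genes numbered 1599, and 476, 452 and 673 without cKO libraries 1, 2 and 3. Without control libraries 1, 2 and 3 they numbered 2392, 1998 and 677, so the Sertoli count moved with the calls over all genes. No marker of either list was at 0. In whole testis, fewer cells of a type and less RNA per cell cannot be told apart. Dtl, the current symbol of Dcaf2, had 41.7, 43.8 and 51.5 CPM in cKO and 42.6, 50.3 and 77.4 CPM in control, and the groups overlapped (log2 fold change -0.31, edgeR adjusted p = 0.281). Leaving out control library 1 gave -0.51, which passed the test (edgeR adjusted p = 0.0321), and leaving out control library 3 gave -0.02. Whole-gene counts do not show whether a transcript lacks the deleted exons, so they check the genotype only loosely.

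Of the 9 genes, Tet1 and Tet2 rose and Dnmt3b and Uhrf1 fell in cKO testes, while Dnmt1, Dnmt3a, Tet3 and Tdg did not pass the test (edgeR's quasi-likelihood test, Benjamini-Hochberg adjusted p under 0.05 over all tested genes). Dnmt3l was also past that threshold with lower values in cKO, but it met the filter on low counts through the control libraries alone, was not called with no filter or by DESeq2, and is described without being counted as a fall. The same test called 25.0% of all tested genes, 11.1% as higher and 13.9% as lower. The values of the groups did not overlap for Dnmt3a, Tet1 and Tet2, which lay higher in cKO, and for Dnmt3b and Uhrf1, which lay lower. Over all tested genes this held for 44.6%, 22.5% higher and 22.1% lower. Dnmt3l lay lower without overlap too, but is not counted here because of how it met the filter. The picture was another one on the scale of the pan-germ-cell markers: 93.7% of all tested genes were then called, 93.0% higher and 0.659% lower, and the median of all genes moved to 1.51 on the log2 scale. Of the 9 genes, 7 were then higher and 0 lower. Every direction given below is relative to the whole testis unless another scale is named.

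**Figure D1:**
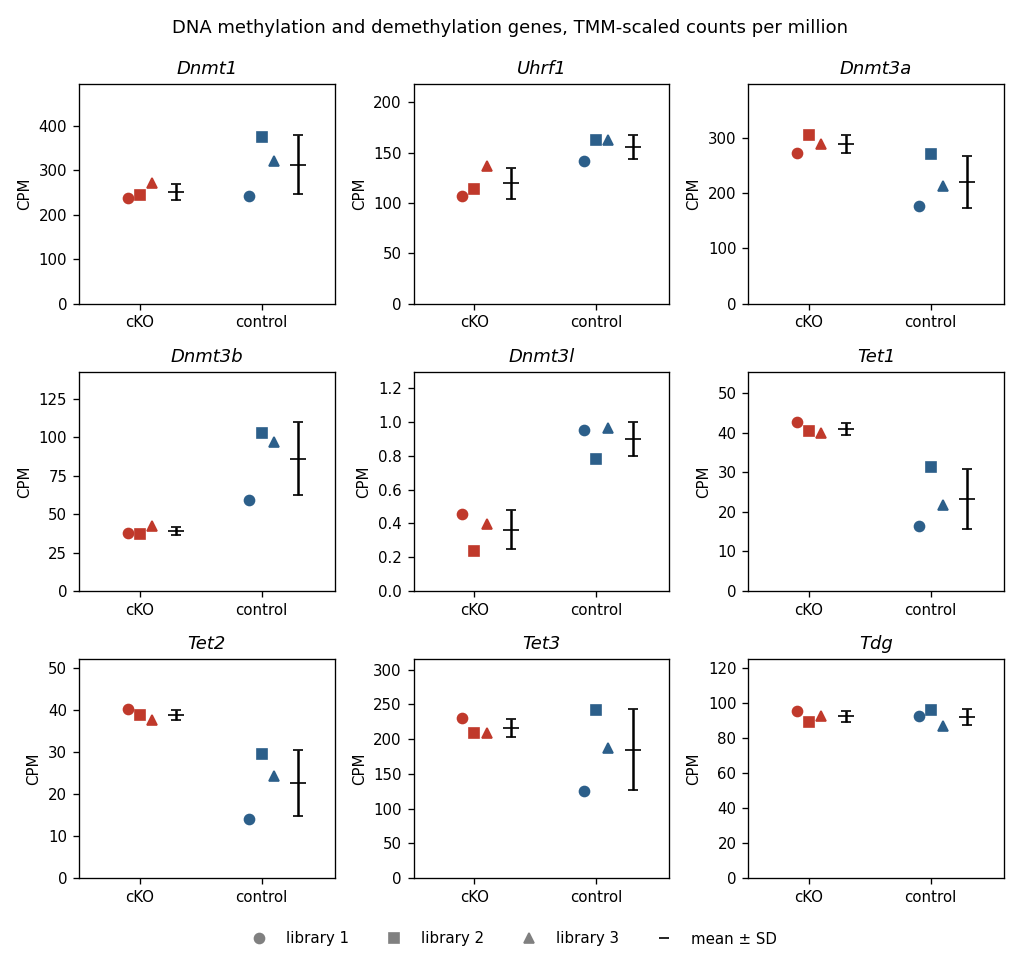
Level of each of the 9 genes in every library, in TMM-scaled CPM, with cKO on the left and control on the right of each panel. Points are libraries and bars are mean ± SD (n = 3 each); Dnmt3b, Dnmt3l and Uhrf1 lie lower in all cKO libraries, Tet1, Tet2 and Dnmt3a higher, and the groups of Dnmt1, Tet3 and Tdg overlap.

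Promoter sequences of the 5 genes past the threshold are shown because the genes lie in opposite directions and the windows differ widely in CpG content, the sequence these enzymes act on. Each line is the 300-base window, 250 bases before and 50 after a RefSeq start site, that holds the most CpG among the gene's windows in the mouse build GRCm38.p6, read 5′ to 3′ on the gene's strand, with each CpG in capitals. The windows are chr17:56304063-56304362 (plus strand) for Uhrf1, chr2:153649199-153649498 (plus) for Dnmt3b, chr10:78042037-78042336 (plus) for Dnmt3l, chr10:62887275-62887574 (minus) for Tet1 and chr3:133544341-133544640 (minus) for Tet2.
Uhrf1: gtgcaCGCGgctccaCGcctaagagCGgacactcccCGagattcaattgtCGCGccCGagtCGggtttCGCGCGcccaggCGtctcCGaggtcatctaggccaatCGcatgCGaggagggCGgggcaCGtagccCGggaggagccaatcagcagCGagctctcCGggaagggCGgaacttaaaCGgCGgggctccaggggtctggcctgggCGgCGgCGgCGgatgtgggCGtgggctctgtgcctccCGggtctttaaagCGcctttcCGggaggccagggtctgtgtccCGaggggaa
Dnmt3b: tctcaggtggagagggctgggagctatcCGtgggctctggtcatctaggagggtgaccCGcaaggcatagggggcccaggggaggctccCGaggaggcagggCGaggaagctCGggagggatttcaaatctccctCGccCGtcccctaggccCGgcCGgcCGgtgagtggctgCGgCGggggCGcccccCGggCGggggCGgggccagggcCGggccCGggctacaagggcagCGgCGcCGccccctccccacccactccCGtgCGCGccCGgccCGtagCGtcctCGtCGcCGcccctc
Dnmt3l: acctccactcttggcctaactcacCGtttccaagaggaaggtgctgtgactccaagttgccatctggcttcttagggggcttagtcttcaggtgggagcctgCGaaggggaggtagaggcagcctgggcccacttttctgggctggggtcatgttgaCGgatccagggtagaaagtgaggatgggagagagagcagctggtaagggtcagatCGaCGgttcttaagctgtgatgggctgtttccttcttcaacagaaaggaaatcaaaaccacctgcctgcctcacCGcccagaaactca
Tet1: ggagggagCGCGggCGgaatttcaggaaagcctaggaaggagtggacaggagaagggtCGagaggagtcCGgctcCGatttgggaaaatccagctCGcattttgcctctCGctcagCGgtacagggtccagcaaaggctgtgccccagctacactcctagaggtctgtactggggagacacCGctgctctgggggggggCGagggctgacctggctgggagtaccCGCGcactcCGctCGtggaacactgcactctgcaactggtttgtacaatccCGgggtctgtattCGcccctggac
Tet2: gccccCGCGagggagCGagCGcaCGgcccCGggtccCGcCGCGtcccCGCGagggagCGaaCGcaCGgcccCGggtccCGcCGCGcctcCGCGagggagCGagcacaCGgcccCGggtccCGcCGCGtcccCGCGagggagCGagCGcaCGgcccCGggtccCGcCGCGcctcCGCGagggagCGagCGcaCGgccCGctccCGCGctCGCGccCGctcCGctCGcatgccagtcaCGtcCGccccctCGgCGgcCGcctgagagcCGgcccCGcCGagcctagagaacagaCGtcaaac

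The Tet2 window held 57 CpG, more than in 99.8% of all 32851 windows, where the median was 7. The Uhrf1 window held 33 CpG, that of Dnmt3b 30 and that of Tet1 17. The Dnmt3l window held only 6, below the median. The windows of Uhrf1 and Dnmt3b, the genes that fell, and those of Tet1 and Tet2, the genes that rose, all lay above the median. So did the richest windows of the genes that did not pass the test: Dnmt1 with 33 CpG, Dnmt3a 47, Tet3 22 and Tdg 26. Each was picked as the gene's richest window, whereas the median is over all windows. E2F-like letters (TTTCCCGC, TTTGGCGC, TTTCGCGC or TTTGCCGC, either strand) were present in 2 of 16 windows of the 9 genes, against 2.26% of all windows. One was the Uhrf1 window shown, with TTTCGCGC starting 185 bases before the start site, and the other a Dnmt1 window with GCGCGAAA starting 219 bases before it and TTTGGCGC after it. A match of letters describes the window and is not a measured binding site.

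The levels of the 9 genes spanned a wide range, compared here per transcript length in the authors' FPKM. In cKO testes Dnmt1 led with 45.9 ± 3.24 FPKM, followed by Uhrf1 with 38.1 ± 4.98, Tdg with 34.6 ± 1.94 and Dnmt3a with 32.3 ± 1.08 FPKM (mean ± SD, n = 3). Each of these 4 overlapped with the next. Below them, without overlap between neighbours, came Tet3 with 20.2 ± 1.40, Dnmt3b with 9.58 ± 0.551 and Tet2 with 4.15 ± 0.152 FPKM. Tet1, at 3.65 ± 0.923 FPKM, overlapped with Tet2, and Dnmt3l was lowest with 0.217 ± 0.0681 FPKM.

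In control testes the top 4 ranks were held by the same genes in the same order, at 60.0 ± 11.8 FPKM for Dnmt1, 50.7 ± 7.21 for Uhrf1, 35.3 ± 2.03 for Tdg and 30.0 ± 7.08 for Dnmt3a (mean ± SD, n = 3). Here Uhrf1 and Tdg did not overlap. Dnmt3b followed with 21.8 ± 6.14 FPKM, one rank above Tet3 with 17.9 ± 5.94 FPKM, and those neighbours overlapped. Tet1 had 2.65 ± 1.33 FPKM, Tet2 2.52 ± 0.835 and Dnmt3l 0.547 ± 0.0666 FPKM. The order thus differed between the groups at 2 places, Dnmt3b with Tet3 and Tet1 with Tet2, and the control neighbours overlapped at both.

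Among the catalytic methyltransferases, Dnmt1 made up 52.3 ± 0.942% of the summed FPKM of Dnmt1, Dnmt3a and Dnmt3b in cKO testes and 53.9 ± 1.47% in control testes. Dnmt3a made up 36.8 ± 1.05% in cKO and 26.8 ± 1.23% in control. Dnmt3b made up 10.9 ± 0.361% in cKO and 19.3 ± 1.98% in control. The shares of Dnmt3a and Dnmt3b did not overlap between the groups, and shares of a sum are not independent of each other. Among the TET genes, Tet3 held 72.3 ± 1.39% of the summed FPKM in cKO testes and 77.9 ± 4.09% in control testes. Tet1 held 12.9 ± 2.08% in cKO and 11.1 ± 3.86% in control, and Tet2 14.8 ± 0.762% in cKO and 10.9 ± 0.254% in control. The shares of Tet3 and Tet1 overlapped between the groups, and those of Tet2 did not.

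The maintenance genes were lower or at overlapping levels in cKO testes. Uhrf1 (ENSMUSG00000001228) had 107, 114 and 137 CPM in the cKO libraries, against 142, 163 and 162 CPM in the control libraries. All cKO values lay below all control values, with cKO library 3 close to control library 1. Uhrf1 averaged 119 ± 15.8 CPM in cKO and 155 ± 12.0 CPM in control. The log2 fold change was -0.38, with an SE of 0.117 and a 95% interval of -0.65 to -0.12 (edgeR adjusted p = 0.0426). The call was lost without cKO library 1 (-0.31, edgeR adjusted p = 0.173), cKO library 2 (-0.35, edgeR adjusted p = 0.164), control library 2 (-0.36, edgeR adjusted p = 0.0616) or control library 3 (-0.35, edgeR adjusted p = 0.139).

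Dnmt1 (ENSMUSG00000004099) had 237, 244 and 271 CPM in cKO and 243, 375 and 322 CPM in control. Control library 1 fell within the cKO range, and the other control libraries lay above it. Its log2 fold change was -0.32, with an SE of 0.151 and a 95% interval of -0.66 to 0.02 (edgeR adjusted p = 0.147). Without control library 1 it was -0.50 and passed the test (edgeR adjusted p = 0.00241). Leaving out control library 2 gave -0.19 (edgeR adjusted p = 0.323). It also passed once the trend on transcript length had been removed from each library, at -0.46 (edgeR adjusted p = 0.00464). Of all tested genes, 36.1% were called without control library 1, 16.4% higher and 19.7% lower, and 33.6% with the length trend removed, 14.7% higher and 18.9% lower.

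The proportion of Uhrf1 to Dnmt1 did not separate the groups. The log2 ratio of Uhrf1 to Dnmt1 counts was -1.08 ± 0.0859 in cKO and -0.99 ± 0.212 in control, a difference of -0.09 (exact two-sided permutation p = 0.7, n = 3 each). DNA replication genes, whose products work beside both proteins at the fork, fell in 21 of 40 cases and rose in 0, with a median log2 fold change of -0.41, against 0.03 over all tested genes. Scaled to those replication genes, Uhrf1 was at -0.03 (edgeR adjusted p = 0.846) and Dnmt1 at 0.03 (edgeR adjusted p = 0.870), and the median of all genes was 0.38. On that scale 48.6% of all tested genes were called, 42.9% higher and 5.66% lower, and of the 9 genes 5 were higher and 1 lower. Scaled to the pan-germ-cell markers, both were higher in cKO, Uhrf1 by 1.10 and Dnmt1 by 1.19, below the all-gene median of 1.51.

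**Figure D2:**
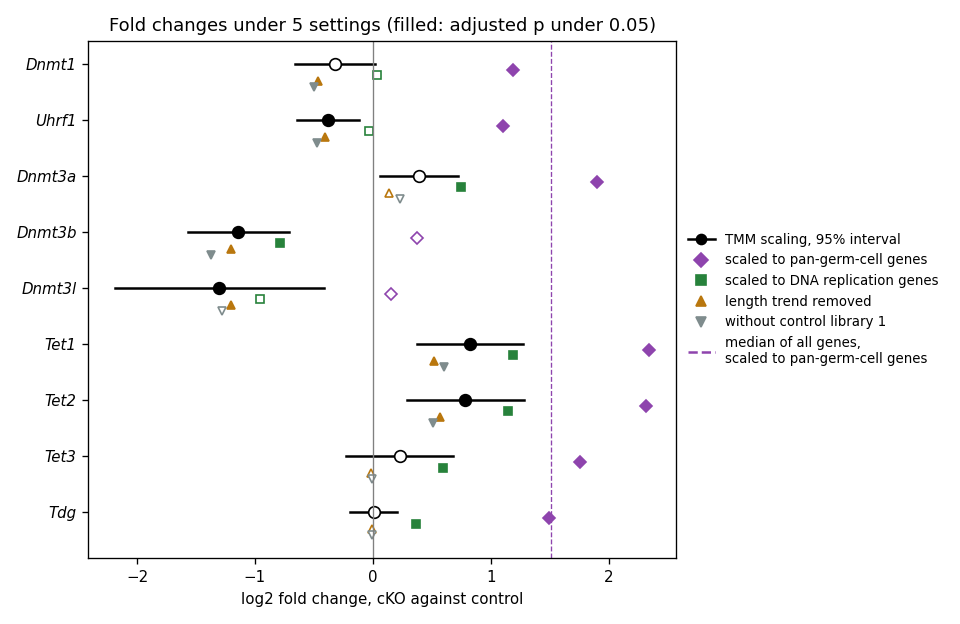
Log2 fold change of the 9 genes, cKO against control (x axis), under 5 settings: the whole-testis (TMM) scaling with its 95% interval, scaling to pan-germ-cell markers or to DNA replication genes, the length trend removed, and control library 1 left out. Filled symbols passed the test at an adjusted p of 0.05, open ones did not, and the dashed line is the all-gene median of 1.51 under pan-germ-cell scaling; Dnmt3b and Dnmt3l lie left of that line and Tet1 and Tet2 right of it on that scale.

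Of the de novo enzymes, Dnmt3b fell and Dnmt3a did not pass the test. Dnmt3b (ENSMUSG00000027478), the de novo enzyme with the lower level, had 38.0, 37.2 and 42.2 CPM in the cKO libraries, against 59.1, 103 and 96.8 CPM in the control libraries. The cKO values were close together, and the lowest control value, in library 1, was above all of them. Dnmt3b averaged 39.1 ± 2.73 CPM in cKO and 86.2 ± 23.7 CPM in control. The log2 fold change was -1.14, with an SE of 0.190 and a 95% interval of -1.57 to -0.71 (edgeR adjusted p = 0.00431). The call held without any one library, with log2 fold changes of -1.38 to -1.01 and edgeR adjusted p of 4.19e-06 to 0.0300. On the pan-germ-cell scale Dnmt3b was at 0.38, above 0 but below the all-gene median of 1.51, and did not pass the test (edgeR adjusted p = 0.0543). Relative to DNA replication genes it was at -0.78 (edgeR adjusted p = 0.00133). The part of the lower germ-cell transcripts in this result was not tested.

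Dnmt3a (ENSMUSG00000020661), the de novo enzyme with the higher level, had 273, 305 and 289 CPM in cKO and 177, 270.3 and 214 CPM in control. All cKO values lay above the control values, with cKO library 1 and control library 2 nearly equal. Dnmt3a averaged 289 ± 15.9 CPM in cKO and 220.4 ± 46.9 CPM in control, a log2 fold change of 0.39 that did not pass the test (SE 0.146, edgeR adjusted p = 0.0791). Without control library 2 it was 0.55 and passed (edgeR adjusted p = 0.00921). Leaving out control library 1 gave 0.23 (edgeR adjusted p = 0.103). With the length trend removed it was 0.14 (edgeR adjusted p = 0.166).

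The proportion of Dnmt3b to Dnmt3a was lower in every cKO library than in any control library. Its log2 ratio of counts was -2.85, -3.04 and -2.77 in the cKO libraries, against -1.58, -1.39 and -1.14 in the control libraries. The difference of -1.51 had an exact two-sided permutation p of 0.1, the smallest that 3 against 3 can give, and 0.12 after adjustment over 6 ratios. A ratio within a library does not depend on how libraries are scaled, but transcript length can enter it. The longest transcripts had 4320 bases for Dnmt3b and 9685 for Dnmt3a, and the part of length in this ratio was not tested. Single genes lay without overlap in 44.6% of all tested genes, and no such share was computed for ratios. Without any one library the difference was -1.62 to -1.40.

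Dnmt3l (ENSMUSG00000000730), the partner without catalytic activity, was close to the lower limit of measurement. It had 7, 4 and 6 counts in the cKO libraries, against 18, 14 and 16 counts in the control libraries. All cKO counts were below the minimum of 10 and all control counts above it, so the gene entered the test through the group where it was high, and its test is no support for a difference. The groups did not overlap, at 0.363 ± 0.114 CPM in cKO and 0.897 ± 0.101 CPM in control. Its log2 fold change was -1.30, with an SE of 0.391 and a 95% interval of -2.19 to -0.42 (edgeR adjusted p = 0.0394). It did not pass with no filter (-1.31, edgeR adjusted p = 0.0793), by DESeq2 (-1.33, adjusted p = 0.0924) or with any one library left out (edgeR adjusted p of 0.0547 to 0.166). It was at 0.15 on the pan-germ-cell scale (edgeR adjusted p = 0.768). Its exons share 67 bases with Aire on the opposite strand, and strand use in the counting is not given in the sources used here.

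Dnmt3c is a copy of Dnmt3b that acts on young transposons in male germ cells. It had 2.11 ± 0.473 CPM in cKO and 1.76 ± 0.127 CPM in control and did not pass the test (log2 fold change 0.27, edgeR adjusted p = 0.50). Where their sequences match, the counting could split reads between Dnmt3c and Dnmt3b, so the values of both are uncertain to that extent. How many reads this touched was not tested. The exons of Dnmt3a share 133 bases with its antisense gene Dnmt3aos.

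Tet1 and Tet2, the TET genes with low levels, rose. Tet1 (ENSMUSG00000047146) had 42.7, 40.5 and 39.9 CPM in the cKO libraries, against 16.5, 31.3 and 21.8 CPM in the control libraries. The cKO values were nearly equal and above all control values, which spread widely. Tet1 averaged 41.0 ± 1.48 CPM in cKO and 23.2 ± 7.54 CPM in control. The log2 fold change was 0.82, with an SE of 0.199 and a 95% interval of 0.37 to 1.27 (edgeR adjusted p = 0.0183).

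Tet2 (ENSMUSG00000040943) followed the same pattern, with 40.1, 38.8 and 37.6 CPM in the cKO libraries, against 14.1, 29.4 and 24.2 CPM in the control libraries. The groups did not overlap, and control library 1 was again the lowest. Tet2 averaged 38.8 ± 1.23 CPM in cKO and 22.6 ± 7.75 CPM in control. The log2 fold change was 0.78, with an SE of 0.220 and a 95% interval of 0.29 to 1.28 (edgeR adjusted p = 0.0314). Tet2 shares 43 exon bases with Gm42567 on the opposite strand.

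Both TET calls depended on single libraries. Tet1 missed the threshold without cKO library 1 (0.80, edgeR adjusted p = 0.0701), cKO library 2 (0.83, edgeR adjusted p = 0.0617), cKO library 3 (0.84, edgeR adjusted p = 0.0552) or control library 3 (0.78, edgeR adjusted p = 0.0762). Tet2 missed it without the same libraries, with 0.76 (edgeR adjusted p = 0.0996), 0.79 (edgeR adjusted p = 0.0916), 0.81 (edgeR adjusted p = 0.0811) and 0.84 (edgeR adjusted p = 0.0820). Over all genes, 452 to 677 were called higher without one of these 4 libraries, against 1599 with all of them. Both genes kept the call without control library 1, the library with low counts of long transcripts, at 0.60 for Tet1 (edgeR adjusted p = 0.00698) and 0.51 for Tet2 (edgeR adjusted p = 0.00416). Scaled to the pan-germ-cell markers, Tet1 was at 2.34 and Tet2 at 2.32, above the all-gene median of 1.51.

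Tet3 (ENSMUSG00000034832), the TET gene with the highest level, had 231, 209 and 208 CPM in cKO and 125, 242 and 187 CPM in control. The cKO values lay inside the control range. Its log2 fold change was 0.23, with an SE of 0.201 and a 95% interval of -0.22 to 0.68 (edgeR adjusted p = 0.432). Without control library 1 it was -0.01 (edgeR adjusted p = 0.955). Leaving out control library 2 gave 0.46 (edgeR adjusted p = 0.0709).

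Within the family, counts of Tet1 and Tet2 were higher relative to those of Tet3 in every cKO library than in any control library. The log2 ratio of Tet1 to Tet3 counts was -2.44, -2.37 and -2.39 in cKO, against -2.93, -2.95 and -3.10 in control, a difference of 0.59. That of Tet2 to Tet3 was -2.53, -2.43 and -2.47 in cKO, against -3.15, -3.04 and -2.95 in control, a difference of 0.57. The groups of either ratio did not overlap, and each exact two-sided permutation p was 0.1, with 0.12 after adjustment over 6 ratios. These genes all have long transcripts, and control library 1 was the highest of the control libraries in the first ratio and the lowest in the second. On FPKM the separation did not hold for Tet1. Its share of the summed TET values was 11.3 to 15.2% in cKO and 8.10 to 15.5% in control.

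Tdg (ENSMUSG00000034674), whose protein is named in the study's title, did not differ beyond the spread of the libraries. It had 95.3, 89.2 and 92.3 CPM in the cKO libraries, against 92.8, 95.7 and 86.9 CPM in the control libraries. All 6 values fell within a narrow band, and the groups overlapped. The log2 fold change was 0.01, with a 95% interval of -0.19 to 0.21 (SE 0.0876, edgeR adjusted p = 0.956). The ligase acts on protein, which was not measured in these libraries.

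The interval sets the size of a Tdg transcript change that these libraries allow on the whole-testis scale. On other scales Tdg moved with the bulk of genes: it was higher by 1.49 relative to the pan-germ-cell markers, where the all-gene median was 1.51, and by 0.37 relative to DNA replication genes, where it was 0.38. In counts relative to Tet1, whose product makes the bases that TDG removes, Tdg was lower in every cKO library than in any control library. The log2 ratio of Tdg to Tet1 was 1.16, 1.14 and 1.21 in cKO, against 2.49, 1.61 and 2.00 in control. The difference was -0.86 with no overlap (exact two-sided permutation p = 0.1, adjusted p = 0.12), and -1.08 to -0.63 without any one library. With Tdg at 0.01 and Tet1 at 0.82 on the whole-testis scale, it repeats the rise of Tet1 counts and shows no change of Tdg. The longest transcripts differ, with 3502 bases for Tdg and 14369 for Tet1. The highest ratio was in control library 1, where counts fell with transcript length. On FPKM the groups of Tet1 overlapped. The part of transcript length in this ratio was not tested. Tdg shares 367 exon bases with Glt8d2 on the opposite strand.

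The control libraries differed among themselves for most of the 9 genes. Control library 1 was the lowest of the control libraries for 7 of them, against 39.9% of all tested genes. The SD of log2 CPM was larger in control than in cKO for 7 of the 9, a share near the 73.4% of all tested genes. The longest annotated transcripts were 14369 bases for Tet1, 10904 for Tet3, 9685 for Dnmt3a and 9179 for Tet2, all in the longest of 10 length classes, and 1822 for Dnmt3l. In that class the median log2 fold change of all genes was 0.24, against -0.18 in the shortest class. With the length trend removed, Tet1 was at 0.52 (edgeR adjusted p = 0.00233) and Tet2 at 0.57 (edgeR adjusted p = 0.00556), both still higher, while Tet3 was at -0.02.

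**Figure D3:**
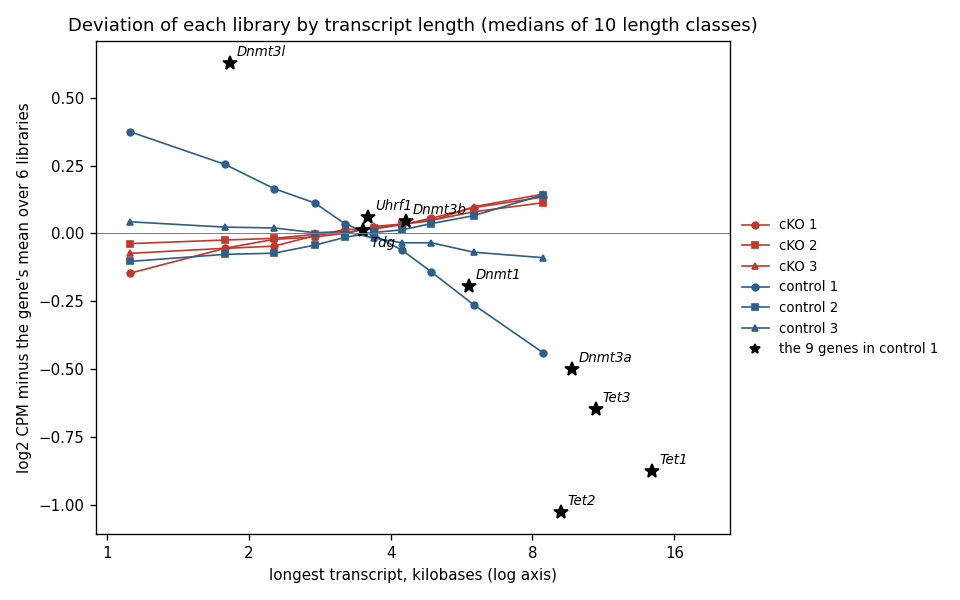
Deviation of each library from the gene's mean over the 6 libraries (log2 CPM, y axis) by longest transcript (kilobases, log axis), as medians of 10 length classes of all tested genes, 1 line per library. Stars are the 9 genes in control library 1, whose line falls from 0.37 to -0.44; Tet1, Tet2, Tet3 and Dnmt3a lie at its low end.

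Counts and FPKM did not give the same picture for Tet1 and Dnmt3a. The authors' files imply an effective transcript length for each gene and library, from the count, the FPKM and the library total. Over 10776 genes the largest of the 6 lengths was a median of 1.04 times the smallest. For Tet1 it was 2.41 times, more than for 99.9% of genes: 8927, 12033 and 13068 bases in cKO, against 14270, 10650 and 5918 bases in control. Tet1 therefore had 4.70, 3.26 and 2.98 FPKM in cKO and 1.19, 2.95 and 3.80 FPKM in control, and these groups overlapped where the CPM values did not. The log2 fold change on the log2(FPKM + 0.1) scale was 0.56 (limma adjusted p = 0.323).

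Dnmt3a had 31.1, 32.6 and 33.2 FPKM in cKO and 23.0, 37.2 and 29.9 FPKM in control, and these groups overlapped too. Its log2 fold change was 0.13 on the log2(FPKM + 0.1) scale (limma adjusted p = 0.585), against 0.39 on counts. The implied length of Dnmt3a was larger in every cKO library, at 8642, 9085 and 8493 bases, against 7935, 7289 and 7396 bases in control. The groups did not overlap, which held in this direction for 7.51% of genes. The difference was 1200 bases (8740 ± 308 in cKO, 7540 ± 346 in control, exact two-sided permutation p = 0.1, the smallest possible), and 1028 to 1398 without any one library. Dnmt3a is known to be read from alternative start sites that give a long and a short protein. Dnmt1, known for a separate start site in oocytes, had implied lengths of 5316 to 5348 bases in all 6 libraries. Which transcripts lie behind the Dnmt3a lengths was not tested.

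**Figure D4:**
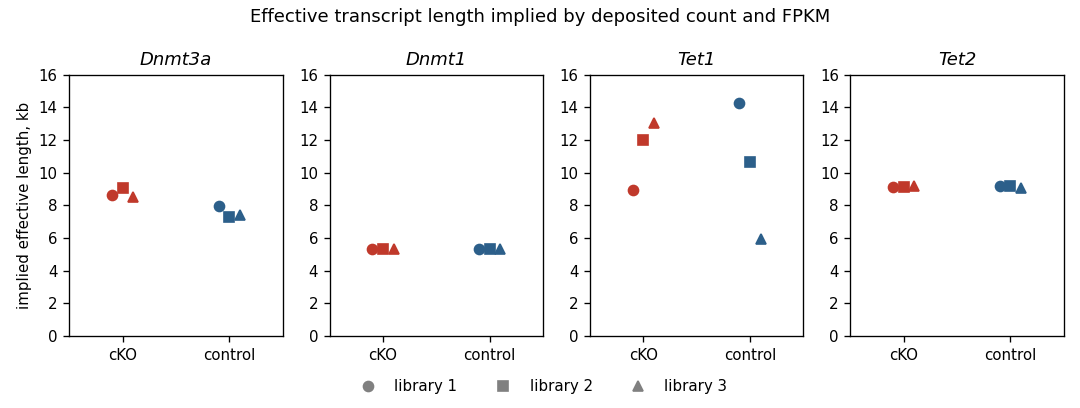
Effective transcript length (kilobases) implied by count, FPKM and library total in each library, for Dnmt3a, Dnmt1, Tet1 and Tet2, with cKO left of control. Points are libraries; Dnmt3a is longer in all cKO libraries, Tet1 spreads from 5918 to 14270 bases without a split by group, and Dnmt1 and Tet2 are nearly constant.

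Genes with the most similar profile over the 6 libraries were found for each gene past the threshold. Those nearest to Dnmt3b were Pgm2l1, Scml2, a Polycomb protein of germ cells, and Rimklb, at root mean square differences of 0.0741 to 0.0838 in centred log2 CPM. Those nearest to Uhrf1 were Bora, Polr1b and Foxm1, at 0.0320 to 0.0513. Foxm1 encodes a transcription factor of dividing cells, and Bora an activator of mitotic kinases. Those nearest to Tet1 were Eif2ak2, Flrt1 and Syne3, at 0.0504 to 0.0566, and those nearest to Tet2 were Naaladl2, Tenm3 and Kcnq3, at 0.0450 to 0.0693. Those nearest to Dnmt3l were Garem2, Lpcat4 and Oard1, at 0.139 to 0.145, so the likeness was weakest for this low gene.

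Partners of the 9 genes were read from lists of pathway genes, each described by its counts. Over all tested genes, 11.1% were called higher and 13.9% lower. Without any one cKO library or control library 3, calls over all genes dropped as well. They were then 452 to 677 higher and 903 to 1260 lower, against 1599 and 2008 with all libraries. Of 17 tested partners of the methyltransferases, 7 were called lower and 0 higher, with a median log2 fold change of -0.31. The 7 were Cdca7l, Ehmt2, Cdca7, Ctcfl, Hells, Dppa4 and Lig1. Ctcfl had 0.455, 0.470 and 1.26 CPM in cKO, against 2.69, 5.13 and 6.91 CPM in control. In cKO libraries 1 and 2 it lay below the minimum count of 10. It met the filter through the control libraries and cKO library 3. Like that of Dnmt3l, its call is no support for a fall, though it is counted among the 7. Hells and Cdca7 encode a remodeller and its partner that open nucleosomes to maintenance methylation, and fell by 0.84 (edgeR adjusted p = 0.00634) and 0.68 (edgeR adjusted p = 0.00458) on the log2 scale. Cdca7l, a relative of Cdca7, had 39.0 ± 1.69 CPM in cKO and 67.7 ± 3.78 CPM in control (log2 fold change -0.80, edgeR adjusted p = 0.000968). Ehmt2, a histone H3 lysine methyltransferase, had 200.3 ± 7.12 CPM in cKO and 299 ± 7.54 CPM in control (-0.58, edgeR adjusted p = 0.00279). On the pan-germ-cell scale 15 of 17 were higher and 1 lower, against 93.0% of all tested genes higher, and the list median lay 0.36 below that of all genes. Without control library 1, 1 partner was called higher.

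Of 10 tested chromatin genes that guide DNMT3 enzymes, 3 fell and 0 rose, with a median of -0.06. They were the histone demethylases Kdm1b at -0.55 (edgeR adjusted p = 0.0147) and Kdm1a at -0.34 (edgeR adjusted p = 0.0201), and Prdm9, a meiotic histone methyltransferase, at -1.12 (edgeR adjusted p = 0.0241). The count fell to 0 without cKO library 1, cKO library 2 or control library 3, to 1 without cKO library 3, and was 5 without control library 1. Without control library 2, 4 of these genes were called higher. Relative to the pan-germ-cell markers, 9 of the 10 were higher, against 93.0% of all tested genes.

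Of 11 tested genes of piRNA-directed methylation, which silences transposons in male germ cells, 10 fell and 0 rose, with a median of -1.36. Mael had 46.7 ± 6.40 CPM in cKO and 155 ± 16.8 CPM in control (log2 fold change -1.74, edgeR adjusted p = 0.000219). Asz1 had 14.9 ± 0.947 CPM in cKO and 39.0 ± 5.04 CPM in control (-1.39, edgeR adjusted p = 0.000363). Spocd1, which links the piRNA protein MIWI2 to DNA methylation, fell by 2.20 (edgeR adjusted p = 0.00114). Morc2a, which is not limited to germ cells, did not pass the test. The fall of this list stands beside that of the pan-germ-cell markers, which hold 6 of its genes, and relative to those markers 1 of 11 was called higher and 1 lower.

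Of 13 tested genes whose promoters are known to be methylated in somatic cells and that are read in germ cells, 13 fell, with a median of -1.63, and all 13 did so without any one library. Sycp3, of the synaptonemal complex, had 10.6 ± 0.401 CPM in cKO and 47.0 ± 6.74 CPM in control (log2 fold change -2.15, edgeR adjusted p = 0.000104). Tex101, a germ-cell surface protein, had 9.20 ± 1.46 CPM in cKO and 40.2 ± 4.36 CPM in control (-2.13, edgeR adjusted p = 0.000204). The pan-germ-cell markers hold 6 of these genes, and relative to the pan-germ-cell markers 4 of 13 were lower and 0 higher.

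Partners on the demethylation side moved in both directions. Of 11 tested TET partners, 3 rose (Cxxc4, Cxxc5 and Ogt) and 1 fell (Sall4), with a median of 0.09. Cxxc4, which encodes the CpG-binding protein IDAX that acts on TET2, was at 0.52 (edgeR adjusted p = 0.0255). Sall4, a transcription factor of spermatogonial progenitors, was at -1.20 (edgeR adjusted p = 0.00659). The count of higher partners was 0 without cKO library 1, cKO library 2 or control library 3, 1 without cKO library 3, and 5 without control library 1. Without control library 1, 2 were lower. Of the 11, 10 were higher and 0 lower on the pan-germ-cell scale, against 93.0% of all tested genes higher, so that the fall of Sall4 did not hold on that scale.

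Of 16 tested genes that work with TDG in base excision, 6 fell and 0 rose, with a median of -0.28. Neil2, a glycosylase, had 3.76 ± 0.447 CPM in cKO and 8.16 ± 1.69 CPM in control (log2 fold change -1.11, edgeR adjusted p = 0.00738). Parp1, which senses strand breaks, had 351 ± 11.5 CPM in cKO and 480 ± 26.9 CPM in control (-0.45, edgeR adjusted p = 0.00852). Ung, Apex1, Gadd45a and Gadd45b were the other genes that fell. The count was 1 without cKO library 1 or 2, 4 without cKO library 3 and 3 without control library 3. Without control library 1, 1 was called higher. On the pan-germ-cell scale 15 of the 16 were higher, a share near the 93.0% of all tested genes, and the list median lay 0.32 below that of all genes.

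Of 10 tested readers of methylated CpG, 2 rose and 0 fell, beside 11.1% and 13.9% of all tested genes, with a median of 0.12. Zbtb4, a zinc finger reader, was at 0.48 (edgeR adjusted p = 0.0212), and relative to the pan-germ-cell markers 10 of 10 readers were higher, against 93.0% of all tested genes. The count was 0 without cKO library 1, cKO library 2, cKO library 3 or control library 3. Without control library 1, 1 reader was called lower. Of 12 tested genes that supply methyl groups, 2 rose and 3 fell, with a median of 0.00. Shmt1, which loads folate with a carbon unit, was at -0.68 (edgeR adjusted p = 0.00264). Without cKO library 1 or 2, 1 of these genes was called in each direction, and without cKO library 3 or control library 3, 1 was higher and 2 lower. Measured against the pan-germ-cell markers, all 12 were higher, beside 93.0% of all tested genes.

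Among DNA replication genes, Rfc4, of the clamp loader, was at -0.86 (edgeR adjusted p = 0.00199), and Cdc45, of the replicative helicase, at -0.85 (edgeR adjusted p = 0.00251). The count of 21 that fell became 10 without cKO library 1, 8 without cKO library 2 and 11 without control library 3, and 1 gene was called higher without control library 2. Relative to the pan-germ-cell markers 39 of 40 were higher, against 93.0% of all tested genes.

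Where a list had 0 genes in a direction by edgeR's test, counts at an unadjusted p under 0.05 were low as well. They were 1 higher gene among the partners of the methyltransferases, 2 among the genes that guide DNMT3 enzymes, 1 among the excision partners and 1 among the replication genes. No reader was lower, and no gene of piRNA-directed methylation or of the methylated germline promoters was higher, at that p. DESeq2, limma-voom and limma on FPKM gave the same adjusted counts of 0, except that limma-voom called 1 gene that guides DNMT3 enzymes higher.

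**Figure D5:**
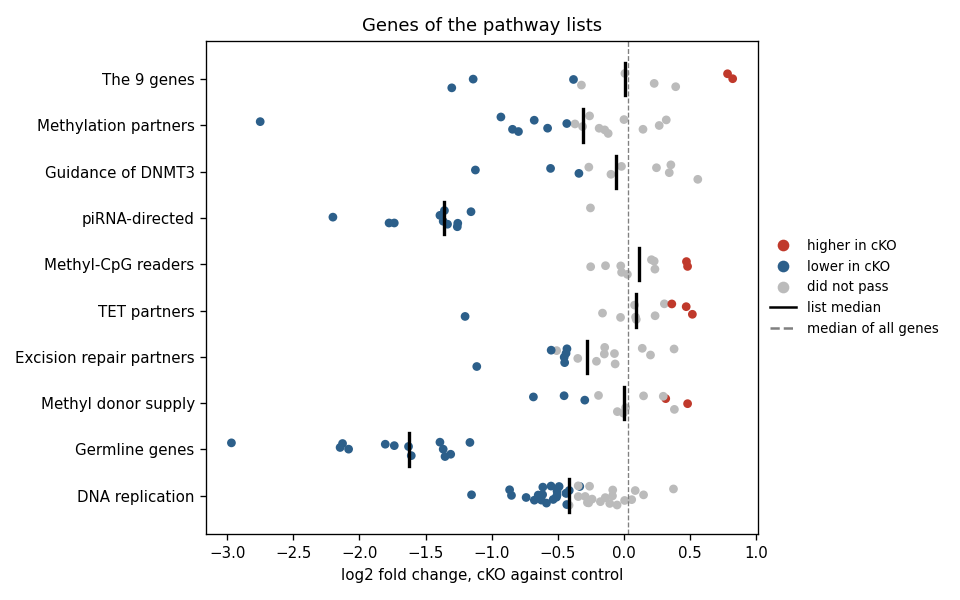
Log2 fold change of every tested gene, cKO against control (x axis), in the 9 genes and in each pathway list, 1 row per list. Coloured points passed the test, grey points did not, black bars are list medians and the dashed line is the all-gene median of 0.03; genes of piRNA-directed methylation (-1.36) and of methylated germline promoters (-1.63) lie lowest, and the other pathway lists lie between -0.41 and 0.12.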

How the data were processed

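Messenger RNA was sequenced from whole testes in 3 cKO and 3 control libraries. The authors deposited 1 table with, per gene and library, an estimated count and an FPKM value. The deposited counts are whole numbers, read as rounded estimates because each library lists 3 to 21 genes at 0 counts whose FPKM is above 0. They were not rounded further. The deposited FPKM values are scaled to transcript length and library total, and were used for levels between genes and for implied lengths. Per the submitters' processing notes, StringTie 1.3.1 and RSEM were used, with no role given. What aligner, build and strand setting the authors used is not given in the sources used here. Promoter windows are located in RefSeq's GRCm38.p6 alone.

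Of 22274 gene IDs, 22219 had a symbol in the reference table of names. With filterByExpr (minimum count 10) in edgeR 4.0.16 under R 4.3.3, 14424 genes were tested, and the rest held 0.063% of counts. Totals were 15407007 to 18372964 counts per library. Counts were scaled by TMM and tested with edgeR's quasi-likelihood test over all 6 libraries without covariates, with Benjamini-Hochberg adjustment and a threshold of 0.05. CPM values use TMM-scaled library sizes, and log2 fold changes are cKO against control. Ratios of counts within a library were compared by an exact two-sided permutation test. Implied length was the length in bases at which a count and a library total give the FPKM, for genes with FPKM of at least 1 and at least 100 counts in every library. It was added after seeing the data. The procedure was tested on simulated counts of 14282 genes for cKO against control: at log2 changes of 0.58, 1 and 2, recovery was 34.4%, 77.6% and 95.3%, and 12 of 147 calls were false. Only 64, 67 and 64 genes were changed at these sizes, and no length trend was simulated. In the real data 25.0% of tested genes were called and control library 1 had such a trend, so these rates may not hold there.

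Alternatives were scaling by RLE, by the upper quartile, by total counts, to pan-germ-cell markers or DNA replication genes, no filter, a CPM filter (3 or more libraries at CPM 1 or above), DESeq2 1.42.0, limma-voom, limma 3.58.1 on log2(FPKM + 0.1), a replicate block, and leaving out each library. Removing a trend on transcript length or GC content (lowess, span 0.3) was added after seeing the data. The members and lists were chosen with earlier results of these data known. Genes named were the 9 members, the 2 genes with the smallest p of each pathway list, the highest tested gene of each marker list with Ddx4, Kit, Stra8 and Sox9, Dtl, and the 3 genes nearest in profile to each member that passed the test (mean log2 CPM of at least 3). Others (Dnmt3c, Hells, Cdca7, Ctcfl, Dppa4, Lig1, Prdm9, Spocd1, Morc2a, Ung, Apex1, Gadd45a, Gadd45b, Cxxc5, Ogt) were named after their values were seen. Some genes that the rule takes are not reported here. Protein sequences were not analysed here.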

Additional observations from a re-analysis of the deposited data

How the results depend on the processing

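Without any one library, log2 fold changes were -0.50 to -0.19 for Dnmt1, 0.23 to 0.55 for Dnmt3a, -1.38 to -1.01 for Dnmt3b, -1.49 to -1.06 for Dnmt3l, -0.49 to -0.31 for Uhrf1, 0.60 to 1.09 for Tet1, 0.51 to 1.01 for Tet2, -0.0096 to 0.46 for Tet3 and -0.030 to 0.033 for Tdg. Tet3 turned below 0 without control library 1 (-0.0096), and Tdg without cKO library 1 (-0.012), control library 1 (-0.0088) or control library 3 (-0.030). Of the 9 genes, 0 to 3 were then higher and 1 to 3 lower. Over all genes 452 to 2392 were higher and 903 to 2863 lower, and in the pathway lists 1 to 12 higher and 34 to 75 lower, against 7 and 60 with all libraries. Differences of log2 ratios were -0.19 to 0.020 for Uhrf1/Dnmt1 (0.020 without control library 1), -1.62 to -1.40 for Dnmt3b/Dnmt3a, -2.02 to -1.44 for Dnmt3l/Dnmt3a, 0.54 to 0.63 for Tet1/Tet3, 0.52 to 0.62 for Tet2/Tet3 and -1.08 to -0.63 for Tdg/Tet1. The Dnmt3l/Dnmt3a ratio rests on 7, 4 and 6 Dnmt3l counts in cKO. Because of how Dnmt3l met the filter, that ratio is no support for a difference. Tdg, near 0 throughout, was at -0.0090 with RLE scaling, -0.019 with upper-quartile and -0.058 with total-count scaling, -0.0011 with no filter, -0.0092 by DESeq2 and -0.030 by limma on FPKM. Scaled to pan-germ-cell markers, Dnmt1 was at 1.19, Dnmt3a at 1.91, Dnmt3b at 0.38, Dnmt3l at 0.15, Uhrf1 at 1.10, Tet3 at 1.76 and Tdg at 1.49. On that scale 7 of the 9 genes were higher and 0 lower, 13418 of all genes higher and 95 lower, and 107 list genes higher and 6 lower. Scaled to DNA replication genes, Dnmt1 was at 0.033, Dnmt3a at 0.75, Dnmt3l at -0.96, Uhrf1 at -0.034, Tet3 at 0.60 and Tdg at 0.37. There 5 of the 9 were higher and 1 lower, 6194 of all genes higher and 817 lower, and 31 list genes higher and 31 lower. Dnmt3l lost its call at -1.31 with no filter (edgeR adjusted p = 0.0793) and at -1.33 by DESeq2 (adjusted p = 0.0924), and the CPM filter left it untested. By limma on FPKM, Dnmt3a was at 0.13, and Uhrf1 (-0.41), Tet1 (0.56) and Tet2 (0.75) lost their calls, so that 0 of the 9 were higher, with 855 of all genes and 3 list genes higher. Total-count scaling also left 3 list genes higher. Alternatives added after seeing the data moved further values. With the length trend removed, Dnmt1 passed at -0.46, Tet3 was at -0.020 and Tdg at -0.0086, and 11 list genes were higher. With that trend removed and control library 1 left out, Dnmt1 was at -0.55, Dnmt3l at -1.26 without a call, Tet3 at -0.076 and Tdg at -0.010, with 2623 of all genes and 13 list genes higher and 3170 of all genes lower. With a GC trend removed, Uhrf1 lost its call at -0.38 (edgeR adjusted p = 0.0533) and Tdg was at -0.025. By CPM per kilobase of longest transcript, Dnmt3a ranked 3 and Tdg 4 in cKO, and Tet1 ranked 8 and Tet2 7 in control. The cause of these changes was not tested. A rank by RefSeq transcript length was not run. Replicate numbers did not pair the libraries (same-number correlations of deviations -0.0719, -0.0781 and 0.0695), and no library correlated best with its own number. With the replicate block, Dnmt3l was at -1.31 without a call (edgeR adjusted p = 0.0688), the calls of the other 8 genes did not change, and 1248 of all genes were higher and 1574 lower. Depth limits Dnmt3l most, with 4 to 18 counts per library.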

Other observations

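Markers of further cell types described the testes in which the 9 genes were measured. For comparison, 11.1% of all tested genes were called higher and 13.9% lower. Without any one cKO library or control library 3, 452 to 677 of all genes were higher, against 1599 with all libraries. Of 21 tested meiotic markers, 18 fell and 0 rose, with sums of 219 to 254 CPM in cKO and 574 to 886 CPM in control. Stag3, a meiotic cohesin subunit and the highest of them, was at -1.75 (log2 fold change, edgeR adjusted p = 0.000707). Of 10 markers of differentiating spermatogonia, 9 fell, with Kit at -1.38 (edgeR adjusted p = 0.00444) and Stra8, the gate to meiosis, at -2.35 (edgeR adjusted p = 0.000453). The tenth, the cyclin gene Ccnd2, rose by 0.77 (edgeR adjusted p = 0.00251). Of 19 markers of undifferentiated spermatogonia, 8 fell and 2 rose, with Foxo1 the highest at -0.33 (edgeR adjusted p = 0.115); 0 rose without cKO library 1 or 2, and 1 without cKO library 3 or control library 3. Among pan-germ-cell markers, Ddx4, an RNA helicase of germ cells, was at -1.31 (edgeR adjusted p = 0.000602) and Dazl, an RNA-binding protein, the highest, at -1.63 (edgeR adjusted p = 0.000219).

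Markers of somatic cells were higher or did not pass the test. Their counts stand beside 11.1% of all tested genes called higher, and 16.4% without control library 1. The myoid share, 1 of 8, was near that of all genes. Higher calls over all genes were 476, 452 and 673 without cKO libraries 1, 2 and 3. They were 1998 and 677 without control libraries 2 and 3, against 1599 with all libraries. Sox9, a transcription factor of Sertoli cells, was at 0.44 (edgeR adjusted p = 0.0280), and Clu, the highest Sertoli marker, at 0.27 (edgeR adjusted p = 0.247). Of 8 tested Leydig cell markers 2 rose, with sums of 1282 to 1305 CPM in cKO and 642 to 1176 CPM in control, where library 1 was the highest; without that library 8 rose. Hsd3b1, a steroid dehydrogenase and the highest of them, was at 0.31 (edgeR adjusted p = 0.121). Of 9 stromal markers 4 rose, with the collagen gene Col3a1 at 0.47 (edgeR adjusted p = 0.0263), and 2 were called without any one cKO library. Of 9 endothelial markers 4 rose, with the cadherin gene Cdh5 at 0.45 (edgeR adjusted p = 0.0263); 0 were called without cKO library 1 or 2 and 2 without cKO library 3. Of 10 macrophage markers 2 rose, with the mannose receptor gene Mrc1 at 0.50 (edgeR adjusted p = 0.00859); without control library 1, 4 rose, and 1 was called without cKO library 1, cKO library 2, control library 2 or control library 3. Of 8 myoid markers 1 rose, with Acta2, the highest, at -0.15 (edgeR adjusted p = 0.278); none was called higher without cKO library 1 or 2 or control library 3, and 3 without control library 2, and 1 was called lower without control library 1 or 2. Of 4 tested erythroid markers 0 were called by edgeR, DESeq2, limma-voom or limma on FPKM, and 0 had an unadjusted p under 0.05, with the haemoglobin gene Hbb-bs at -0.27 (edgeR adjusted p = 0.673).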
